A study of Mus musculus with 5 samples.

Results

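The transcripts of 10 circadian clock genes, Clock, Arntl, Per1, Per2, Per3, Cry1, Cry2, Nr1d1, Nr1d2 and Dbp, were followed in mouse macrophages after lipopolysaccharide (LPS). They were taken by symbol from a table of 13339 genes, and all 10 symbols were found. Macrophages were grown with M-CSF over 5 days from marrow of 8-week-old C57BL/6 mice, and the sample titles carry the code WT2, which the labels do not explain further. LPS, the Gram-negative cell wall component that signals through TLR4, was given at 100 ng/ml, and RNA was sequenced at 0, 4, 8, 12 and 24 h, with 1 library at each time. The series is titled for the histone methyltransferase Setd2, and the libraries used here are labelled as differing in time with LPS alone. There were no replicates, so no test between times was possible and every difference below is between a pair of libraries. Cells kept without LPS for the same times were not among the samples and the labels do not give the clock hour of any harvest, so the effect of LPS, time in culture and circadian phase cannot be told apart.

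The mammalian clock is a feedback loop of transcription. The proteins CLOCK and ARNTL (also called BMAL1) pair and bind E-box elements, where they activate the Per and Cry genes; PER and CRY proteins then enter the nucleus and repress that pair. In a further loop the nuclear receptors REV-ERB alpha and beta, encoded by Nr1d1 and Nr1d2, repress Arntl through AGGTCA elements. Dbp is an output of the loop: it encodes an activator of the PAR bZIP family that binds D-box elements, which the repressor NFIL3 binds too. Macrophages have such a clock, and REV-ERB alpha is known as a repressor of inflammatory genes in them.

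These elements can be seen in the promoters of some of the 10 genes. RefSeq promoter windows of 300 bases (250 before to 50 after a start site, build GRCm38.p6) were at hand for 9 of the 10, with 13 windows in all, and were searched on both strands. The E-box CACGTG was present in a window of Per1 and of Cry1, and the D-box TTATGTAA in that of Per3. AGGTCA, a half-site shared by REV-ERB and ROR receptors, was present in windows of Clock, Arntl, Per1 and Nr1d2. In Arntl it began 31 bases after the start site of its window. The bases around AGGTCA were not searched, so REV-ERB and ROR sites cannot be told apart. There was no overlap between elements. The D-box was also searched as TTACGTAA, and the cAMP response element as TGACGTCA, which none of the 9 genes held. Of 32851 windows of all genes, 7.15% held an E-box, 1.06% a D-box, 16.3% the AGGTCA half-site and 1.79% the cAMP response element. The members above are counted by gene. Of 27025 genes, 2187 held an E-box, 333 a D-box, 4900 the half-site and 549 the cAMP response element. The Per3 window held the D-box 2 times, starting 205 and 158 bases before the start site, and only 8 of the 32851 windows held 2 or more. The windows shown are those of Per1 and Cry1, which share an E-box but had unlike values after LPS, and of Per3, which holds the element that DBP binds. Capitals mark the elements, where TGACCT is AGGTCA read on the other strand. A match describes these letters and is not evidence of binding. The Per1 window is chr11:69098699-69098998 on the plus strand, that of Cry1 chr10:85185005-85185304 on the minus strand and that of Per3 chr4:151044616-151044915 on the minus strand.
Per1: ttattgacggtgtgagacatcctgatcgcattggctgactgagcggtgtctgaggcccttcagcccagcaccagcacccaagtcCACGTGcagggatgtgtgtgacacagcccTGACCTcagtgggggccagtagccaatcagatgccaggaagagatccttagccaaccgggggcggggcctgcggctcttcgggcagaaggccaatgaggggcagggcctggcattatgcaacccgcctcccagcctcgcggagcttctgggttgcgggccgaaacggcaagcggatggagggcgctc
Cry1: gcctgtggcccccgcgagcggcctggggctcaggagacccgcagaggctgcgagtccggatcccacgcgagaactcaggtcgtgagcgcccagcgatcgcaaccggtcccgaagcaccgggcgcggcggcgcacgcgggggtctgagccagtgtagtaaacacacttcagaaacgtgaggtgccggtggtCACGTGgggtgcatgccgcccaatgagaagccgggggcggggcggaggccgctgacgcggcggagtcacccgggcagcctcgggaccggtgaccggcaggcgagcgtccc
Per3: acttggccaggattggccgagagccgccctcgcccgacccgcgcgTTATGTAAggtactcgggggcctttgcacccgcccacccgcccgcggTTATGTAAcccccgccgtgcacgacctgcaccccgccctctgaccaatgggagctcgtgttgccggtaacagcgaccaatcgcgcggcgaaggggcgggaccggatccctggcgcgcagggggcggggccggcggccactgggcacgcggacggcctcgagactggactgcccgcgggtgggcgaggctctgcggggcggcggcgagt

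Levels are given as FPKM, fragments per kilobase of transcript scaled to library size, as the authors deposited them. Each library held some 18.8 to 19.3 M reads, as estimated from the steps between low values of genes with 1 RefSeq transcript. Read numbers quoted here are estimates from that depth and from the longest coding transcript, and 95% intervals (Poisson for levels, exact binomial for ratios) cover counting error only. Log2 differences are on log2(FPKM + 1), which understates the ratio of low genes: Per2, Per3 and Nr1d1 had means of 0.354, 0.636 and 0.986 FPKM. Of the 10 genes 7 had a mean of at least 1 FPKM, Dbp only because of its 0 h value. All differences from 0 h share the same 0 h library. Lower values were common in the whole table, since the median difference of all 9795 genes with such a mean was -0.70 at 4 h against 0 h and -0.11 at 24 h. Members are therefore also given relative to the median gene, with libraries centred on it, with the trend of the difference by transcript length removed, or scaled to 16 reference genes. The centring adds the same amount to every gene of a library, also to those too low to move far on this scale. In such bulk RNA, fewer cells of a type and less RNA per cell cannot be told apart.

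**Figure D1:**
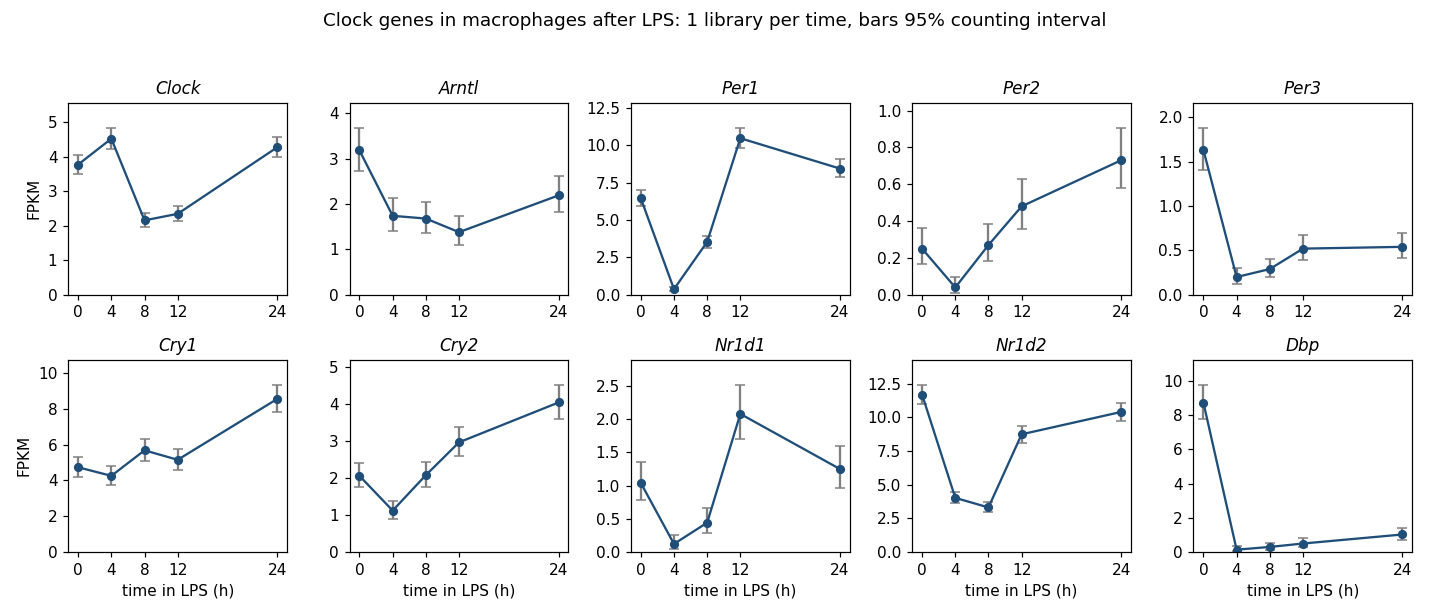
FPKM of the 10 clock genes (vertical axes from 0, a scale for each gene) against hours in LPS (0, 4, 8, 12, 24), 1 library per point, with 95% counting intervals as bars. Dbp is at 8.74 FPKM at 0 h and at or below 1.02 in the 4 later libraries, while Per1 is at 0.38 at 4 h and at 10.48 at 12 h.

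The activators had modest differences. Clock (gene 12753; chromosome 5, 76209868 to 76304792, GRCm38), which encodes a bHLH-PAS factor, had 3.78, 4.53, 2.16, 2.35 and 4.28 FPKM in the libraries of 0, 4, 8, 12 and 24 h. It was highest at 4 h, where most of the other members were lowest. The log2 difference of Clock was 0.21 at 4 h against 0 h and -0.60 at 8 h against 0 h. Arntl, the partner of Clock (gene 11865; chromosome 7, 113207465 to 113314126), had 3.18, 1.74, 1.68, 1.38 and 2.19 FPKM in the same order. All 4 libraries with LPS were below the 0 h library. Relative to 0 h it differed by -0.61 (log2) at 4 h, by -0.81 at 12 h and by -0.39 at 24 h. The 4 h difference was about that of the median gene, and it turned to 0.09 after centring and to 0.12 after removal of the length trend. The ratio of Clock to Arntl within a library was 2.60 at 4 h against 1.19 at 0 h. This contrast depended on the length trend, without which the log2 difference at 4 h against 0 h was 0.24 for Clock and 0.12 for Arntl. The paralog of Clock, Npas2, was low throughout (0.87, 0.43, 0.25, 0.23 and 0.36 FPKM in order of time), and the paralog of Arntl, Arntl2, was between 0 and 0.06 FPKM.

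The 3 Period genes, whose proteins form the repressive complex with CRY, were each lowest at 4 h. Per1 (gene 18626; chromosome 11, 69095217 to 69109960) had 6.46 FPKM before LPS and 0.38, 3.54, 10.48 and 8.45 FPKM after 4, 8, 12 and 24 h. The 4 h value rests on about 33 reads and the 0 h value on about 574. Per1 was thus low for a time and then above its 0 h level. At 4 h it was 17.0-fold lower than at 0 h (counting interval 12.1 to 25.2). Of the 9795 genes with a mean of at least 1 FPKM, 3.47% matched or exceeded downwards its log2 difference of -2.43. This became -1.74 after centring, -1.98 without the length trend and -2.11 against reference genes. At 24 h Per1 was 22.2-fold higher than at 4 h, a log2 difference of 2.78 that 1.01% of the same genes reached. At 12 h it was higher than at 0 h by 0.62, and by 0.98 after centring.

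Per2 (gene 18627; chromosome 1, 91415982 to 91459324) was scarce, with 0.25, 0.04, 0.27, 0.48 and 0.73 FPKM over the 5 times. It was below Per1 in every library, and below Per3 in all but that of 24 h, though by little at 8 and 12 h. Only about 4 reads stand behind the 4 h value and 82 behind the 24 h value. The 24 h library was 2.92-fold above the 0 h library (counting interval 1.88 to 4.65). Since Per2 was at 0.25 FPKM at 0 h, its log2 difference on the scale used could hardly be large: it was -0.27 at 4 h and 0.47 at 24 h against 0 h, and the first of these was 0.43 after centring.

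Per3 (gene 18628; chromosome 4, 151003652 to 151044665) differed from both in staying low. Its values were 1.63, 0.20, 0.29, 0.52 and 0.54 FPKM in order of time. The 0 h library was above all the others. Per3 was 8.15-fold lower at 4 h than at 0 h (counting interval 5.17 to 12.9) and 3.02-fold lower at 24 h than at 0 h (2.25 to 4.09). The ratio of Per1 to Per3 within a library was 1.90 after 4 h, 20.2 after 12 h and 15.6 after 24 h, against 3.96 before LPS.

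The cryptochromes, the partners of PER, were higher late. Cry1 (gene 12952; chromosome 10, 85131700 to 85185064) had 4.74 FPKM before LPS and then 4.26, 5.69, 5.16 and 8.57 FPKM. Its window holds the E-box as that of Per1 does. The 4 h library was close to the 0 h library for Cry1, with counting intervals that overlap (3.74 to 4.83 FPKM at 4 h, 4.19 to 5.34 at 0 h). The ratio of Cry1 to Per1 was 11.2 at 4 h, against 0.73 at 0 h. The small log2 difference of Cry1 at 4 h, -0.13, turned to 0.57 after centring, 0.59 without the length trend and 0.31 against reference genes.

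Cry2 (gene 12953; chromosome 2, 92403646 to 92434043) had 2.06, 1.12, 2.08, 2.97 and 4.05 FPKM over the 5 times. The 4 h library was the lowest and the 24 h library the highest. At 24 h against 0 h the log2 difference was 0.72 for Cry2 and 0.74 for Cry1, and under the 3 other scalings it lay between 0.73 and 0.83 for Cry2 and between 0.84 and 0.88 for Cry1. These differences stayed under 2-fold on this scale. At 4 h the difference of Cry2 from 0 h, -0.53, was 0.17 after centring and near 0 without the length trend.

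The REV-ERB genes were low at 4 and 8 h and near or above their 0 h level later. Nr1d1 (gene 217166; chromosome 11, 98767932 to 98775333) had 1.04 FPKM before LPS, then 0.12, 0.44, 2.08 and 1.25 FPKM. Like Per1 it was lowest at 4 h and highest at 12 h. About 6 reads lie behind the 4 h value and 54 behind the 0 h value, and Nr1d1 was 8.67-fold lower at 4 h than at 0 h, with a wide counting interval of 3.84 to 25.3. Its log2 differences from 0 h, -0.87 at 4 h and -0.50 at 8 h, were -0.10 and 0.03 without the length trend. The sign at 8 h thus depended on scaling, but a gene this low can hardly move on log2(FPKM + 1). As plain ratios relative to the median gene, Nr1d1 was 4.88-fold lower at 4 h and 1.58-fold lower at 8 h. That scale was chosen after the values were seen. At 12 h Nr1d1 was 17.3-fold above 4 h and 2-fold above 0 h. Of the exonic bases of Nr1d1, 8.55% overlap exons of the thyroid receptor gene Thra on the opposite strand. Thra stood at 4.14, 1.31, 2.51, 5.16 and 3.89 FPKM in order of time, and the sources used here do not say whether strand was kept, so reads of the shared bases cannot be told apart.

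Nr1d2 (gene 353187; chromosome 14, 18204054 to 18239127) had the highest mean of the 10 genes, 7.62 FPKM. The libraries in order of time gave 11.67, 4.01, 3.30, 8.73 and 10.39 FPKM. The libraries of 4 and 8 h were low, and that of 24 h was close to that of 0 h. Against 0 h the log2 difference was -1.34 for 4 h, -1.56 for 8 h and -0.15 for 24 h. The first became -0.64 after centring, and thus under 2-fold, and the last turned to 0.02 against reference genes. The ratio of Nr1d2 to Nr1d1 was 33.4 at 4 h and 4.20 at 12 h, against 11.2 at 0 h.

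Dbp (gene 13170; chromosome 7, 45705088 to 45710203) had the largest difference of the 10 genes at 4 h and stayed low to the last time. Before LPS it had 8.74 FPKM, and then 0.13, 0.29, 0.49 and 1.02 FPKM after 4, 8, 12 and 24 h. The estimated reads are 302 at 0 h, 4 at 4 h and 35 at 24 h. Dbp was 67.2-fold lower at 4 h than at 0 h (counting interval 28.9 to 276) and 8.57-fold lower at 24 h than at 0 h (6.10 to 12.7). Its log2 difference at 4 h against 0 h was -3.11, and at 24 h it was -2.27. Of the 9795 genes with a mean of at least 1 FPKM, 1.10% matched or exceeded the first downwards and 2.43% the second. Dbp has such a mean only because of its 0 h value, so it had to differ to be ranked, and the ranks are no support for the difference. Under the 3 other scalings the difference of Dbp lay between -2.81 and -2.15 at 4 h and between -2.16 and -1.91 at 24 h. Exons of Sphk2, a sphingosine kinase gene on the opposite strand, cover 18.0% of the exonic bases of Dbp. Sphk2 stood at 43.14, 16.44, 42.44, 48.91 and 44.84 FPKM in order of time. As for Nr1d1, reads of the shared bases cannot be told apart, and their part in the values of Dbp was not tested.

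Other D-box factors can be set beside Dbp. Tef, which encodes another PAR bZIP activator, had 16.28 FPKM before LPS and 0.75, 1.56, 4.59 and 8.08 FPKM after it. Tef was low at 4 h as Dbp was, with a log2 difference of -3.30 from 0 h, but nearer its 0 h level at 24 h, with -0.93. The third family member, Hlf, did not exceed 0.03 FPKM in any library. The repressor gene Nfil3 went the other way, with 6.84, 36.51, 26.28, 35.17 and 20.01 FPKM in order of time. Within a library the ratio of Nfil3 to Dbp was 281, 90.6, 71.8 and 19.6 in the libraries of 4, 8, 12 and 24 h, against 0.78 in that of 0 h. Nfil3 thus lay slightly below Dbp at 0 h and above it in every later library.

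**Figure D2:**
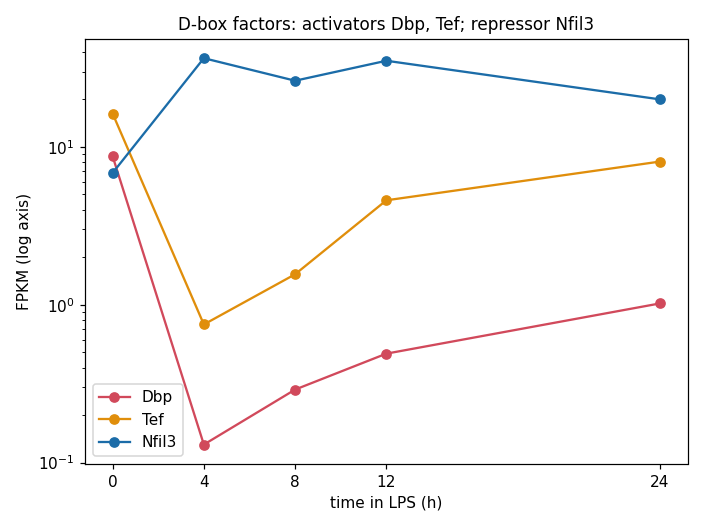
FPKM on a log axis of the D-box activators Dbp and Tef and the D-box repressor Nfil3 against hours in LPS, 1 library per point. Dbp and Tef are above Nfil3 at 0 h (8.74 and 16.28 against 6.84 FPKM) and below it in all 4 later libraries.

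Counted over the genes with a mean of at least 1 FPKM, 3 of 7 clock genes (Per1, Nr1d2 and Dbp) were lower by 2-fold or more at 4 h, against 0 h, beside 38.1% of all genes. None was higher by as much, beside 12.2% of all genes. The median difference of the 7 was -0.61, against -0.70 for all genes, so the count is close to the background. Dbp had to differ to be counted here, since its 4 later values average below the filter. The count was 2 of 7 (Per1 and Dbp) after centring, where 13.4% of all genes were lower. Over all 10 without the filter, 4 were lower, with Per3 added, beside 29.7% of the 13339 genes, and none was higher, beside 9.15%. On ratios of FPKM without a pseudocount, taken relative to the median gene (0.563-fold at 4 h), 5 of the 10 were lower by 2-fold or more, namely Per1, Per2, Per3, Nr1d1 and Dbp, beside 21.9% of the genes above 0 in both libraries. On that scale Clock was 2.13-fold higher, and 23.9% of genes were higher by 2-fold or more. This scale was chosen after the values were seen, and Per2, Nr1d1 and Dbp had 4 to 6 reads at 4 h.

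At 8 h, 2 of the 7 (Nr1d2 and Dbp) were lower by 2-fold or more against 0 h, beside 28.9% of all genes, and none was higher, beside 12.0%. Over all 10, 3 were lower, with Per3 added, beside 22.8%, and none was higher, beside 8.97%. At 12 h Dbp alone was lower, beside 21.5% of genes over the filter and 16.9% of all, and none of the 10 was higher, beside 12.3% and 9.30%. The same held at 24 h, where Dbp alone was lower, beside 14.5% and 11.5%, and none was higher, beside 11.3% and 8.56%. The median of the 7 was 0.14 at 24 h, against -0.11 for all genes. On ratios without a pseudocount relative to the median gene, Per2 and Cry2 were higher by 2-fold or more at 24 h, beside 16.1%, and Per3 and Dbp lower, beside 18.6%. Those shares of the 10 at 24 h are close to the background. On such ratios at 12 h, Nr1d1 was 2.67-fold, Per2 2.56-fold and Per1 2.16-fold higher than the median gene. Per3 was 2.35-fold and Dbp 13.4-fold lower, and the other members stayed under 2-fold. The share of all genes was not counted for these ratios at 12 h. Between 24 h and 4 h, 3 of the 7 (Per1, Cry2 and Nr1d2) were higher by 2-fold or more at 24 h, beside 25.0% of all genes, and none was lower, beside 8.21%. Nr1d1 joined them over all 10, beside 19.0%, and none of the 10 was lower, beside 6.21%. After centring Per1 alone was higher, beside 9.65%.

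In time, 7 of the 10 genes (Per1, Per2, Per3, Cry1, Cry2, Nr1d1 and Dbp) had their lowest value at 4 h, beside 43.8% of all 13339 genes, and 4 of the 7 over the filter, beside 46.1%. The order depended on scaling, since after centring 2 of the 10, Per1 and Nr1d1, were lowest at 4 h, beside 22.5% of the genes over the filter, which is the background share. Under each of the 4 scalings, Per1 and Nr1d1 were highest at 12 h and Cry1 and Cry2 at 24 h, whereas Per3 and Dbp were highest at 0 h. Of the genes over the filter, as deposited, 48.7% were highest at 0 h, which was thus common, while 7.58% were so at 12 h and 24.5% at 24 h.

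**Figure D3:**
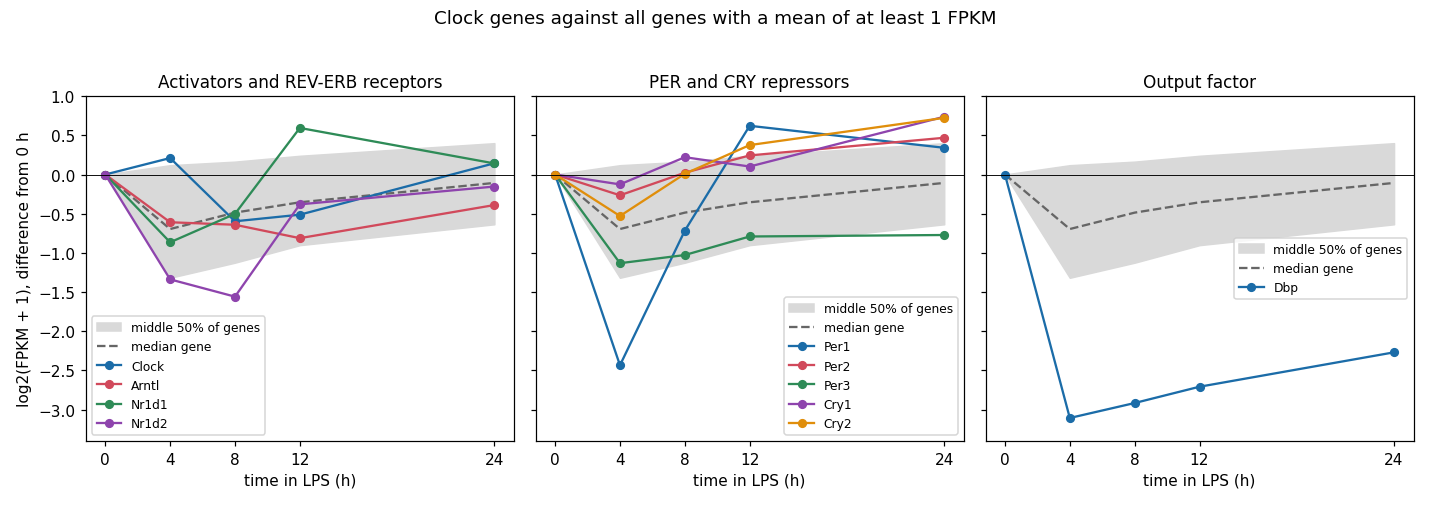
Difference from 0 h on log2(FPKM + 1) (vertical axis) against hours in LPS for the activators and REV-ERB genes, the PER and CRY genes, and Dbp, with the median (dashed) and the middle 50% (grey) of the 9795 genes with a mean of at least 1 FPKM. Of the points after 0 h, 23 lie inside the grey band, 8 lie below it (Dbp at all 4 times, Nr1d2 at 4 and 8 h, Per1 at 4 h and Per3 at 24 h) and 9 above it (Clock at 4 h, Cry1 at 8 and 24 h, Cry2 and Per2 at 12 and 24 h, Per1 and Nr1d1 at 12 h). With 0 h levels of 0.25 and 1.04 FPKM, Per2 at any time and Nr1d1 at 4 and 8 h could not lie below the band. Their place inside it there says nothing about the size of their fall.

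**Figure D4:**
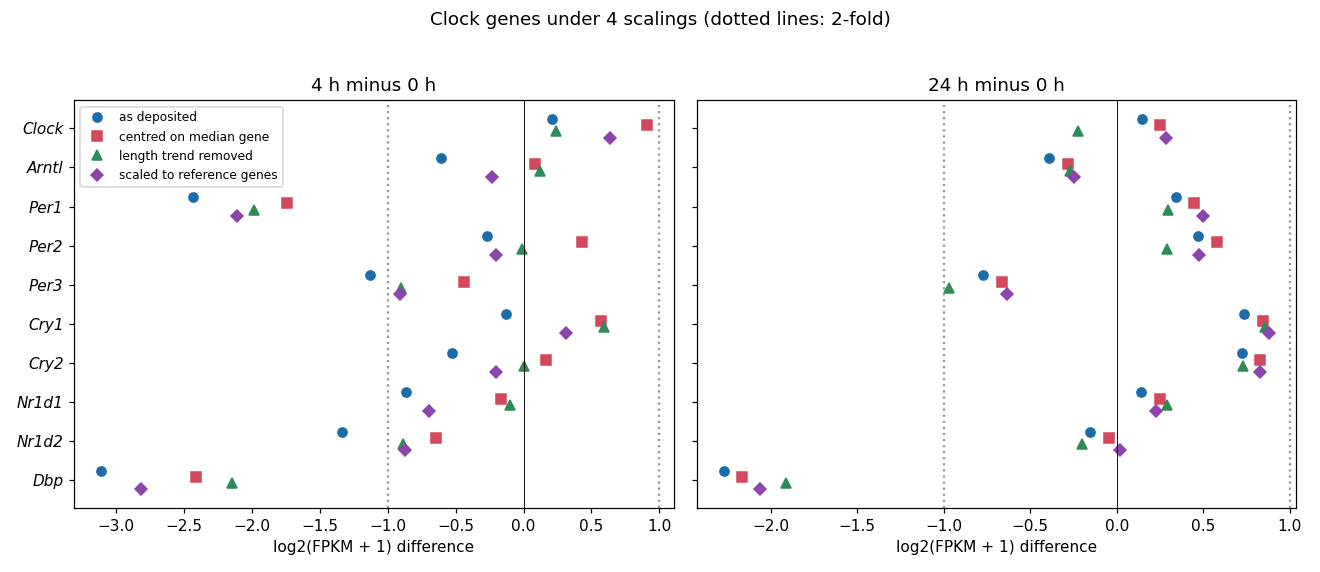
Log2(FPKM + 1) differences of the 10 clock genes (horizontal axis) at 4 h minus 0 h and 24 h minus 0 h under 4 scalings of the libraries, with dotted lines at 2-fold. Per1 (-2.43 to -1.74) and Dbp (-3.11 to -2.15) are past 2-fold at 4 h under all 4, whereas Arntl, Per2, Cry1 and Cry2 lie on both sides of 0. Per2, at 0.25 FPKM at 0 h, can hardly move down on this scale. Its plain ratio at 4 h was 3.52-fold lower than that of the median gene, on about 4 reads.

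The rest of the clock machinery was read from lists, beside the shares of all genes given above (12.2% higher and 38.1% lower at 4 h, 11.3% higher and 14.5% lower at 24 h, against 0 h). Of 13 partners and paralogs of the clock genes 11 were listed and 7 passed the filter, with 2 higher and 4 lower by 2-fold or more at 4 h, and 2 higher and 1 lower at 24 h. Their median difference at 4 h was -1.45, against -0.70 for all genes. Bhlhe40 and Bhlhe41, which encode the E-box repressors DEC1 and DEC2, were among the lower: Bhlhe40 had 3.60 FPKM after 4 h and 13.27 after 24 h, against 25.29 before LPS. Bhlhe41 had 7.07 and 14.10 FPKM at these times, against 41.63. Timeless, whose product acts at replication forks, was higher, with 5.58 FPKM at 4 h and 5.07 at 24 h, against 0.66 at 0 h.

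A list of 21 genes whose products act on clock proteins held kinases, phosphatases and ubiquitin ligases, and also deubiquitinases and a deacetylase. Of the 21, 18 passed the filter. At 4 h 3 were at least 2-fold higher, among them a deubiquitinase gene at exactly 2-fold, and 4 lower than at 0 h. After centring 7 were higher and none lower, where 21.5% of all genes were higher and 13.4% lower. The median of the 18 was -0.05, or 0.64 after centring. Fbxw11, which encodes a beta-TrCP ligase for PER proteins, had 67.83 FPKM after 4 h and 27.66 after 24 h, against 18.16 before LPS. Csnk1e, the PER kinase casein kinase 1 epsilon, had 9.54 and 7.56 FPKM at these times, against 27.87. Fbxw7, a ligase for REV-ERB alpha, had 2.69 and 4.25 FPKM, against 9.93, and Csnk2a1, a casein kinase 2 subunit, had 13.62 and 26.05, against 30.85. At 24 h 2 of the 18 (Csnk1e and Fbxw7) were lower and none higher than at 0 h. The next largest differences at 24 h were -0.95 for the phosphatase gene Ppp1cc and 0.85 for Csnk1a1, another casein kinase 1.

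Genes of the HDAC3 corepressor complex, through which REV-ERB represses, went both ways. The homologous subunit genes Tbl1xr1 and Tbl1x were opposite. Tbl1xr1 was at 1.61 FPKM after 4 h and 5.57 after 24 h, against 13.76 before LPS, and Tbl1x at 22.69 and 13.68, against 3.71. Gps2, a further subunit, stood at 15.34 and 18.38 FPKM, against 39.97, and Hdac3, the deacetylase, at 10.14 and 16.84, against 21.72.

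Of 16 clock output genes, some of which are also among the partners above, 14 passed the filter. At 4 h 4 were at least 2-fold higher and 7 lower than at 0 h, and at 24 h 4 were higher and 3 lower. The median of the 14 was -0.82 at 4 h and -0.64 at 24 h. Tsc22d3, the glucocorticoid-induced leucine zipper gene, had 1.54 FPKM after 4 h and 17.74 after 24 h, against 49.94 before LPS. Noct, which encodes nocturnin, was highest at 4 h, with 31.79 FPKM, and had 2.43 FPKM after 24 h, against 4.02 before LPS. Cdkn1a, the cell cycle inhibitor p21, had 1047 FPKM after 4 h and 328 after 24 h, against 34.93 before LPS. Nampt, the rate-limiting enzyme of NAD salvage, stood at 226 and 136 FPKM, against 44.62, and Herpud1, a gene of the endoplasmic reticulum stress response, at 9.21 and 6.56, against 25.38.

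The genes whose course over the 5 libraries was nearest to that of Dbp, Per1 and Nr1d2, the members with the largest range on log2(FPKM + 1), were found by the root mean square difference of log2(FPKM + 1) profiles, each centred on its mean. By the ratio of highest to lowest FPKM, Per2 (18.25), Nr1d1 (17.3), Per3 (8.15) and Cry2 (3.62) exceed Nr1d2 (3.54). The likeness rests on 5 points and carries no test. Nearest to Dbp were C77080 (0.07), Cnr2, the cannabinoid receptor gene of immune cells (0.07), Ugt1a6b (0.11), Lpin1 (0.13) and Tcp11l2 (0.14). At 0 and 4 h C77080 had 54.61 and 5.70 FPKM, Cnr2 10.97 and 0.50, Ugt1a6b 19.93 and 1.53, and Tcp11l2 16.01 and 0.63. Dbp had 8.74 and 0.13, so profiles that are near on this scale can have unlike ratios. Ugt1a6b shares exons with its neighbours in the Ugt1a cluster, so its value is uncertain. Lpin1, a phosphatidate phosphatase gene of lipid synthesis, stood at 7.52, 0.12, 0.04, 0.20 and 0.53 FPKM in order of time. Nearest to Per1 were Tor4a (0.23), Zfand2a (0.25), Uvrag (0.26), Msrb1 (0.27) and 1700017B05Rik (0.27), all less close on this scale than the neighbours of Dbp. Nearest to Nr1d2 were Chchd6 (0.09), Jun (0.11), Lrrc20 (0.13), Pafah2 (0.14) and Hsd17b10 (0.14). Jun, the AP-1 subunit gene, stood at 46.12, 16.91, 15.35, 31.09 and 46.43 FPKM.

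The label of the cells was checked on marker lists. All 9 macrophage markers were above 0 in every library, with a summed level of 2475 to 3394 FPKM. Of 8 dendritic cell markers 7 were listed, with sums of 7.69 to 17.44 FPKM, and 1 protocol field of the labels names dendritic cells. Zbtb46 and Flt3, which define conventional dendritic cells and their precursors, did not exceed 0.25 and 0.53 FPKM. Batf3, a transcription factor gene, had 4.14, 0.86, 0.92, 1.96 and 3.03 FPKM in order of time, and the chemokine receptor gene Ccr7, a marker of mature dendritic cells, had 1.20, 4.82, 14.82, 11.54 and 9.13 FPKM. Neutrophil markers, 7 of 8 listed, summed to 321, 254, 180 and 58.78 FPKM after 4, 8, 12 and 24 h, against 339 before LPS, and Mpo was at 0 at 24 h. Lymphoid markers (4 of 6 listed) summed to 1.88 to 9.24 FPKM, with Cd79a at 0 at 4 h, and stromal markers (5 of 5) to 2.49 to 6.08. Single neutrophil markers differed in direction at 4 h: Mpo had 1.73 FPKM at 4 h, against 4.79 at 0 h, Ltf 6.48 against 11.45, and Camp 6.78 against 3.0. Ly6g went against the sum, with 0.12, 0.19, 0.53, 1.14 and 3.71 FPKM in order of time. At 24 h against 0 h 6 of the 7 neutrophil markers were lower by 2-fold or more and 1, Ly6g, was higher. The part of these cells in the values of the clock genes was not tested at any time.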

How the data were processed

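RNA of 5 libraries, 1 per time after LPS, was sequenced on a BGISEQ-500 instrument, per the labels' protocols. The authors deposited FPKM values with 2 decimals, per the file headers; the submitters' processing notes name Bowtie2, RSEM and GRCm38, without roles, and for strand, annotation and filters nothing is given in the sources used here. An FPKM depends on all other genes of a library.

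Differences were taken on log2(FPKM + 1), and 2-fold or more was counted among genes with a mean of at least 1 FPKM (Python 3.11.15, pandas 2.3.3). No test was run, since each time had 1 library. Depth was estimated from genes with 1 RefSeq transcript, for which 53.3% to 65.0% of low values came out as whole reads (tolerance 0.04 reads, or 0.005 FPKM where that is wider); chance gives 19.3% to 19.8%. The step was chosen for the best match between 10 and 40 M reads, with 40 nt taken off the length, so it is an estimate, and no count test was run. Transcript lengths (GENCODE M21, longest coding transcript) were found for 96.8% of the genes over the filter; the length trend is a lowess fit with fraction 0.3 (statsmodels 0.14.6).

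The members and gene lists were chosen with earlier results of these data known. Besides the members, named genes are the up to 4 with the largest difference per list at 4 h and at 24 h against 0 h, paralogs, and the 5 nearest profiles of 3 members; Thra, Sphk2, Cx3cr1 and the single cell type markers were added after their values were seen. The counts of the corepressor list and 1 gene of it are not reported here. Counting was tested on simulated data, where planted differences were scored only in genes above the 0 h level of most members. The simulated libraries had no shift between them, so the test does not cover low genes or such a shift.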

Additional observations from a re-analysis of the deposited data

How the results depend on the processing

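Of the counts of clock genes past 2-fold among the 7 over the filter, those at 4 h against 0 h kept within 1.5 times under every alternative run, which were pseudocounts of 0.1 and 5, the 3 scalings, a 1.5-fold threshold and no filter. With a 1.5-fold threshold, against 0 h, the lower genes were 5 at 8 h (beside 45.4% of all genes) and 2 at 12 h (38.7%), and the higher genes 1 at 12 h (17.4%) and 2 at 24 h (19.0%). Between 24 h and 4 h 5 were higher (44.8%). With a pseudocount of 0.1, 2 were lower at 12 h than at 0 h (beside 26.0% of all genes). Between 24 h and 4 h, the 3 higher genes became 1 with a pseudocount of 5, 1 after centring and 1 without the length trend. The shares of all genes beside these were 8.57%, 9.65% and 9.84%. No difference of 2-fold or more on log2(FPKM + 1) changed sign, but differences of low genes that pass 2-fold as plain ratios did. Per2 at 4 h against 0 h was -1.32 with a pseudocount of 0.1 and 0.43 after centring. Nr1d1 at 8 h against 0 h was -1.08 with that pseudocount and 0.03 without the length trend, and Per3 at 24 h against 4 h was 1.09 and, after centring, -0.13. Of 50 smaller or larger differences, 6 had the other sign with libraries centred, 7 with the length trend removed, 3 against reference genes and 2 relative to the median gene without a pseudocount, an alternative chosen after seeing the data; the cause was not tested. No paired analysis was possible because each time has 1 library. Depth limits Dbp, Per2 and Nr1d1 at 4 h, with 4 to 6 reads each.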

Other observations

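Genes described in macrophages as targets of REV-ERB or BMAL1 were set beside the clock genes. Of 12 listed, 11 passed the filter, and 6 were at least 2-fold higher and 2 lower at 4 h than at 0 h (12.2% and 38.1% of all genes), and 7 higher and 1 lower at 24 h (11.3% and 14.5%). The chemokine gene Ccl8 had 0.44, 13.11, 32.47, 23.51 and 19.03 FPKM in the libraries of 0, 4, 8, 12 and 24 h. Ccl2, also a chemokine gene, had 4.25, 401, 235, 365 and 452 FPKM, and the cytokine gene Il10 1.75, 140, 35.23, 20.55 and 8.73 FPKM. Both cytokine genes Il1b (2.50, 2323, 1104, 1031 and 389 FPKM) and Il6 (0.10, 247, 71.18, 27.46 and 4.61 FPKM) were highest at 4 h. Hmox1, which encodes heme oxygenase, was lowest at 4 h and highest at 24 h, with 176.51, 44.18, 369, 1255 and 3228 FPKM. Cx3cr1, the fractalkine receptor gene, did not pass the filter and had 1.54, 0.25, 0.37, 0.89 and 1.70 FPKM. It was lowest at 4 h, as 43.8% of all 13339 genes were, and is named after its values were seen. The list went both ways while both REV-ERB genes were low at 4 h, and no relation between them was tested.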
